A study of Mus musculus with 2 samples.

Results

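The 37 genes described here make and regulate the cell division cycle. They were taken as a fixed list of symbols: 12 genes of DNA replication, 17 genes of mitosis, the broadly used chromatin and microtubule genes Hmgb2 and Stmn1, the 3 G1 genes Ccnd1, Ccnd2 and Cdk4, and the 3 inhibitor genes Cdkn1a, Cdkn1b and Cdkn2c. All 37 were among the 31053 genes of the count tables, of which 21749 had at least 1 count in the cells used, and all 37 had counts there. The cells came from pancreatic islets of 2-week-old C57BL/6J mice, one pool of 3 female Npc1-/- mice and one pool of 3 female wild type (WT) littermates. Npc1-/- mice lack, in the whole body, the transporter that carries cholesterol out of lysosomes. Each pool gave 1 single-cell RNA library, in which a unique molecular identifier (UMI) counts 1 captured transcript at its 3′ end. Mice of a pool cannot be told apart, so there is 1 sample per genotype, no test between genotypes was possible, and every interval given is a 95% interval for counting error alone.

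A dividing cell passes from G1, where D-type cyclins with Cdk4 push it toward division, into S phase, where DNA is copied, and then through G2 into mitosis. The MCM proteins form the helicase that opens DNA at origins, Pcna is the sliding clamp of the polymerases, and the mitotic kinase Cdk1 works with A- and B-type cyclins until the anaphase-promoting complex, with Cdc20 and Ube2c, ends mitosis. Cdkn1a (p21) and Cdkn1b (p27) bind cyclin-kinase complexes, and Cdkn2c (p18) binds Cdk4 and its relative Cdk6. Islet cells of rodents divide in the weeks after birth and much less in adults, and Ccnd2 is known as the main D cyclin of postnatal β cells.

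The WT library held 4628 cells with a median of 18905 UMIs, and the Npc1-/- library 4269 cells with a median of 21381. Classes were set by the leading hormone of a cell or, where no hormone reached 10% of its UMIs, by standard markers. The insulin-led class held 1833 WT and 1826 Npc1-/- cells, glucagon-led 1048 and 857, somatostatin-led 189 and 141, Ppy/Pyy-led 411 and 442, endothelial-like 429 and 425, stellate-like 239 and 258, and mesenchymal-like 50 and 64. The somatostatin-led class was mixed: Sst took 17.6% and 17.2% of its UMIs and Ppy with Pyy 11.1% and 11.8%, and 107 of 189 and 101 of 141 of its cells held a second hormone at 10% or more. Endothelial, stellate and mesenchymal marker sums were highest in the classes named for them, with none of the 10 defining markers of each list at 0. The class rule used these same markers, so this describes the classes and is no separate check of them. B cell-like cells numbered 142 in the WT and 1 in the Npc1-/- library, and T cell-like cells 74 and 0; none of the classes described contains them by the class rule. Npc1 itself had 8.40 UMIs per 1000000 in WT and 4.14 in Npc1-/- cells, and whether its counted 3′ end lies in the deleted part is not given in the sources used here. The libraries shared 3 barcodes among the cells used. On GRCm38, genes that the results below turn on lie apart from each other, such as Mki67 (chr7:135689784-135716361), Ccnd2 (chr6:127125162-127152193) and Cdkn2c (chr4:109660876-109667189).

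Promoter sequences of 31 of the 37 genes were found in RefSeq (GRCm38.p6), as windows from 250 bases before to 50 bases after each start. Both strands were searched for the CCAAT box (CCAAT), the cell cycle homology region or CHR (TTTGAA or TTCGAA) and an E2F motif (TTTCCCGC, TTTCGCGC, TTTGCCGC or TTTGGCGC). Of 14 mitosis genes with a window, 13 held a CCAAT box and 10 held a CHR, and these 10 genes were Ccnb2, Cdc20, Cdca3, Cdk1, Cenpa, Cenpf, Hmmr, Mki67, Top2a and Ube2c. A CCAAT box was found in 37.4%, a CHR in 19.2% and both in 7.52% of all 32851 windows. Counted once for each of 27025 gene symbols, as the members are, the shares were 41.1%, 21.7% and 8.61%. Of the 12 replication genes, 6 (Hells, Lig1, Mcm3, Mcm5, Mcm6 and Pclaf) held an E2F motif, against 2.26% of all windows and 2.6% of gene symbols, and 1 held a CHR. A CCAAT box was found in 8 of these 12 genes as well, so it was not particular to the mitosis list. Of the 14 mitosis genes, 1 (Cdk1) held an E2F motif. Among the inhibitors, Cdkn1b and Cdkn2c held a CCAAT box and none held a CHR or an E2F motif. Matches that overlap were all counted. The bases just before the start are shown for Cdk1, Cdc20, Top2a and Ube2c, whose transcripts marked the mitotic cells below, for Hmgb2, which followed them, and for Mcm6 and Hells of the replication list. Each of these holds a match in the stretch shown. The E2F matches of Cdk1, Lig1, Mcm3, Mcm5 and Pclaf did not lie within the same stretch of their promoters. Nor did the CHR matches of Ccnb2, Cdca3, Cenpa, Cenpf and Hmmr. Capitals mark the motif letters, read on either strand, so that ATTGG is a CCAAT box and TTCAAA a CHR on the other strand, and a match is a description of letters and not a proven binding site.
Cdk1 (chr10:69352913-69353012, minus strand, 5′ to 3′): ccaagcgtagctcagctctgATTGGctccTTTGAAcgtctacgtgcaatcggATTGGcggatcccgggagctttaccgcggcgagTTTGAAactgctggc
Cdc20 (chr4:118437344-118437443, minus strand, 5′ to 3′): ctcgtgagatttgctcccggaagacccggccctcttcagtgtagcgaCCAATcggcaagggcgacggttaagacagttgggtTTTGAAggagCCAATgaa
Top2a (chr11:99024190-99024289, minus strand, 5′ to 3′): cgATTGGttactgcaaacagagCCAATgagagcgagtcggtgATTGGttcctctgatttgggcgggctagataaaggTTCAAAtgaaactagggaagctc
Ube2c (chr2:164769829-164769928, plus strand, 5′ to 3′): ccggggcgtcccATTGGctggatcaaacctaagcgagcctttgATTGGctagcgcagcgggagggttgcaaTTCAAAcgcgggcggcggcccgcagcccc
Hmgb2 (chr8:57511743-57511842, plus strand, 5′ to 3′): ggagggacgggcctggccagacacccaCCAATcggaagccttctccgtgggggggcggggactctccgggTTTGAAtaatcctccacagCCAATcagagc
Mcm6 (chr1:128359706-128359815, minus strand, 5′ to 3′): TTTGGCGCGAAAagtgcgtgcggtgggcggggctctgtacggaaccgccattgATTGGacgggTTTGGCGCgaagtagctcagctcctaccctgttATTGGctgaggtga
Hells (chr19:38930890-38930989, plus strand, 5′ to 3′): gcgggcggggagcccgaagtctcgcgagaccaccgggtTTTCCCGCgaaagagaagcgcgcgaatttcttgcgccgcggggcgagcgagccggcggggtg

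Mitosis genes were transcripts of a small and sharply set apart group of cells, in both libraries. Each cell was thinned to 2500 UMIs outside the hormone genes, and a cell with a UMI of 3 or more of the 17 genes was counted as a mitosis-gene cell. Of 1806 insulin-led WT cells, 1557 had no mitosis gene, 14 had 2, 6 had 3 and 87 had 5 or more, with up to 17 in 1 cell. The replication genes parted the cells less sharply. Of the same cells 1374 had none, 290 had 1, 63 had 2, 20 had 3, 23 had 4 and 36 had 5 or more. To see how a single gene follows the others without having chosen the cells, each gene was left out of its own list in turn. Cells chosen by the other 16 mitosis genes were at most 5.32% of insulin-led WT cells and held a median of 94.0% of the left-out gene's UMIs (lowest 79.1% for Spc24, a kinetochore gene of the Ndc80 complex, highest 98.5% for Hmmr, a spindle protein). The median was 95.2% in insulin-led Npc1-/- cells, and 93.1% and 96.0% in glucagon-led WT and Npc1-/- cells. For a replication gene the medians were 52.3%, 40.6%, 64.0% and 62.3% in the same 4 groups. Pclaf, a partner of Pcna, was the most confined replication gene in insulin-led WT cells (77.7%), and Pcna, which also serves DNA repair, the least (36.3%). The lists were not detected equally. In insulin-led WT cells the 12 replication genes had 5963 UMIs before thinning and the 17 mitosis genes 16504. Without thinning, 273 of 1833 such cells had 3 or more replication genes and 152 had 3 or more mitosis genes. After thinning the numbers were 79 and 96 of 1806. How much of the contrast between the lists comes from this unequal detection was not tested.

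**Figure D1:**
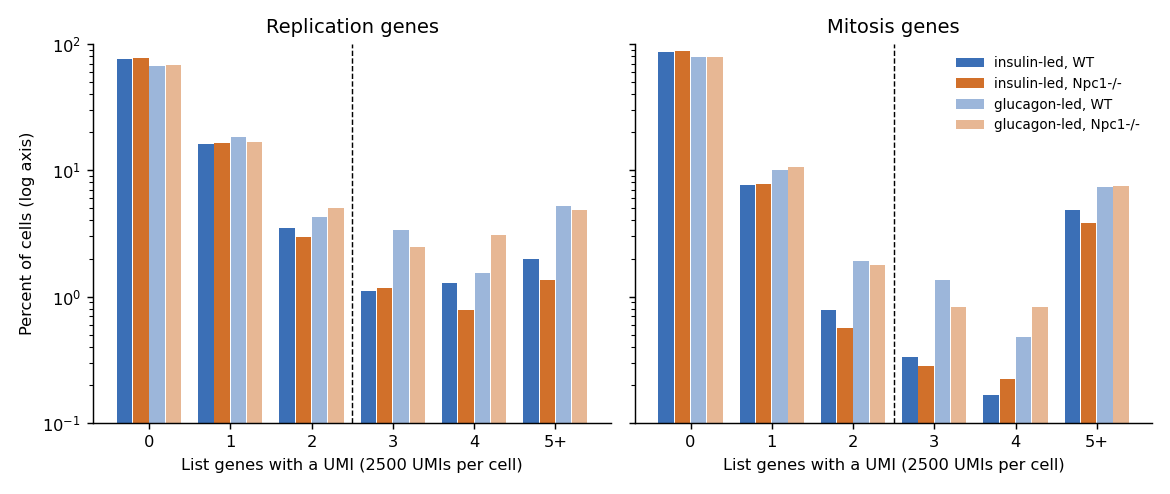
Percent of insulin-led and glucagon-led cells of each library (log axis) by the number of replication genes (left) or mitosis genes (right) with a UMI after thinning to 2500 UMIs per cell, with the limit of 3 genes as a dashed line. Few cells lie at 2 to 4 mitosis genes and a separate group has 5 or more (87 of 1806 insulin-led WT cells). Replication genes part the same cells less sharply, with 63, 20 and 23 cells at 2, 3 and 4 genes and 36 at 5 or more. The replication list had fewer UMIs than the mitosis list in each group.

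In endothelial-like cells 2 mitosis genes were spread more widely. Cells chosen by the other mitosis genes held only 45.1% (WT) and 46.4% (Npc1-/-) of the UMIs of Cenpa, the centromeric histone, and 55.3% and 56.2% of those of Cdk1. Before thinning, Cdk1 was seen in 24.2% of WT and 27.8% of Npc1-/- endothelial-like cells, beside 8.46% and 6.46% of the deeper insulin-led cells. Mki67, the standard proliferation antigen, was seen in 7.69% and 4% of endothelial-like cells.

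With thinned cells and the filters used here, glucagon-led cells held higher shares of replication-gene and mitosis-gene cells than the other 6 classes in both libraries. This order did not hold under every alternative. Without thinning, the WT replication share was 23.8% in Ppy/Pyy-led and 22.9% in glucagon-led cells, and with a stricter cell filter stellate-like cells stood at 10.7% (6 of 56) against 10.4% for WT replication and at 10.6% (5 of 47) against 10.5% for Npc1-/- mitosis. After thinning, mitosis-gene cells were 9.23% of 1040 WT cells (7.54 to 11.2%, exact Clopper-Pearson interval, as for all shares) and 9.19% of 849 Npc1-/- cells (7.33 to 11.3%). In insulin-led cells the shares were 5.32% of 1806 WT cells (4.33 to 6.45%) and 4.36% of 1791 Npc1-/- cells (3.46 to 5.41%). The share was thus 1.74 times as high in glucagon-led as in insulin-led WT cells (1.32 to 2.28) and 2.11 times as high in Npc1-/- cells (1.56 to 2.86), so the interval lay above 1 in each library on its own. Without thinning, mitosis-gene cells were 8.29% and 6.90% of insulin-led and 13.5% and 14.0% of glucagon-led cells. Without the upper UMI limit used to keep cells, they were 6.38% of 1959 WT and 5.06% of 2134 Npc1-/- insulin-led cells. The glucagon-led shares were then 9.23% and 9.27%, so the classes lay closer together in both libraries than with the limit.

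Replication-gene cells, defined by 3 or more of the 12 replication genes, also took a larger share of glucagon-led than of insulin-led cells. They were 10.1% of WT and 10.4% of Npc1-/- glucagon-led cells, and 4.37% and 3.29% of insulin-led cells, which is a ratio between the classes of 2.31 (1.74 to 3.06) in WT and 3.15 (2.29 to 4.33) in Npc1-/- cells. In Ppy/Pyy-led cells the replication share was 8.37% and 8.33%, and the mitosis share 5.67% and 3.70%. Against insulin-led cells their replication share was 1.91 times as high in WT (1.30 to 2.82) and 2.53 times as high in Npc1-/- cells (1.69 to 3.78), and the mitosis ratios were 1.07 (0.685 to 1.66) and 0.850 (0.502 to 1.44). Without thinning, replication-gene shares were 14.9% and 14.8% of insulin-led and 22.9% and 25.9% of glucagon-led cells, and 23.8% and 25.8% of Ppy/Pyy-led cells. Without the upper UMI limit, they were 4.85% and 3.75% of insulin-led and 10.1% and 10.3% of glucagon-led cells, and 8.96% and 8.67% of Ppy/Pyy-led cells.

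The other classes held few such cells. Stellate-like cells had mitosis-gene shares of 7.23% (17 of 235) in WT and 5.98% (15 of 251) in Npc1-/-, endothelial-like cells 4.51% (19 of 421) and 3.30% (14 of 424), and somatostatin-led cells 2.70% (5 of 185) and 1.43% (2 of 140). With the highest doublet scores removed, the stellate-like shares were 3.14% (7 of 223) and 4.17% (10 of 240) and the endothelial-like shares 2.51% and 1.72%, beside 5.29% and 3.97% in insulin-led cells, so that the WT stellate-like share then lay below the insulin-led one. Mesenchymal-like cells had 2 mitosis-gene cells of 50 in WT and 0 of 63 in Npc1-/-, where 3 counts of 63 cells would be 4.76% and the upper Clopper-Pearson bound is 5.69%. No class is known to lack these genes, and this last class, with a median of 9425 non-hormone UMIs beside 12833.5 in insulin-led Npc1-/- cells, gives the lowest level seen: Mki67 and Top2a had 1 UMI each in it.

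**Figure D2:**
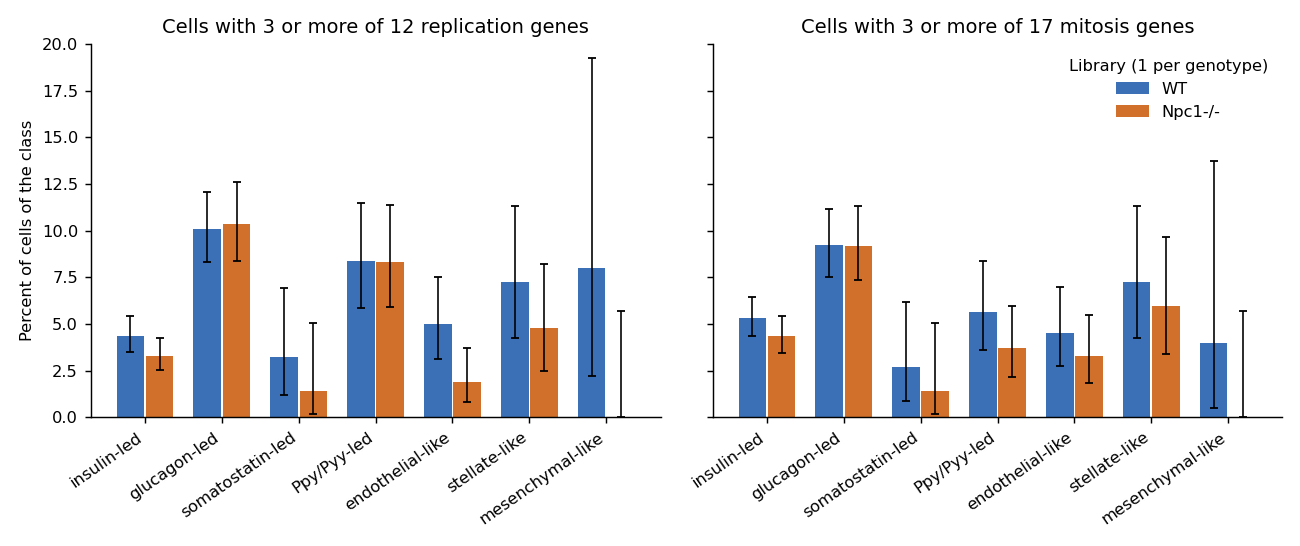
Percent of the cells of each class with 3 or more replication genes (left) or mitosis genes (right) in the WT and Npc1-/- libraries, after thinning to 2500 UMIs per cell, with exact 95% intervals for counting error as bars. Glucagon-led cells stand at 9.19 to 10.4% in all 4 bars, and insulin-led cells at 3.29 to 5.32%.

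Between the genotypes, most differences in these shares lay within counting error. The ratio Npc1-/- over WT of mitosis-gene shares was 0.819 in insulin-led (0.612 to 1.10), 0.995 in glucagon-led (0.749 to 1.32), 0.654 in Ppy/Pyy-led (0.350 to 1.22), 0.732 in endothelial-like (0.372 to 1.44) and 0.826 in stellate-like cells (0.422 to 1.62). The replication-gene ratios were 0.753 in insulin-led (0.541 to 1.05), 1.03 in glucagon-led (0.785 to 1.34) and 0.995 in Ppy/Pyy-led cells (0.635 to 1.56). Intervals left 1 in 4 cases. In endothelial-like cells 21 of 421 WT and 8 of 424 Npc1-/- cells were replication-gene cells (ratio 0.378, 0.169 to 0.844), but without thinning the ratio was 1.21. Endothelial-like cells with both lists numbered 11 in WT and 3 in Npc1-/- (ratio 0.271, 0.0761 to 0.964). Without thinning they were 26 of 429 (6.06%) in WT and 18 of 425 (4.24%) in Npc1-/-, which lie closer together. Insulin-led cells with both lists, which carry replication and mitosis transcripts together, were 2.93% in WT (53 cells) and 1.73% in Npc1-/- (31 cells), a ratio of 0.590 (0.380 to 0.914) that was 0.925 without thinning. Over the hormone-led classes together the ratio for both lists was 0.684 (0.523 to 0.894) after thinning, and its value without thinning is not given here. The glucagon-led part of it changed direction with thinning. Glucagon-led cells with both lists were 5.87% in WT and 5.06% in Npc1-/- with thinning, but 10.02% and 10.97% without it. Ppy/Pyy-led cells with both lists stayed fewer in Npc1-/- without thinning, at 37 of 411 in WT and 29 of 442 in Npc1-/-.

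Summed over a class, the mitosis genes leaned together but by amounts that rest on few cells. Levels are given as UMIs per 1000000 non-hormone UMIs, and a difference between genotypes as a log2 ratio relative to the median gene of the class. In insulin-led cells each of the 17 mitosis genes had a ratio under that of the median gene, with a list median of -0.37, and the summed list stood at 714 in WT and 582 in Npc1-/- cells. At a 1.5-fold limit, 1 of the 17 (Cdc20) and 2 of the 12 replication genes (Pclaf and Rrm2) were lower, where 3.16% of the 12855 genes tested in that class were lower, and none was higher, where 3.59% were. Cdc20, the mitotic activator of the anaphase-promoting complex, had 29.1 in WT and 19.8 in Npc1-/- cells. Ribonucleotide reductase Rrm2, which makes the building blocks of DNA, had 12.7 and 8.19, and Pclaf 37.8 and 20.97. Mki67 had 53.2 (50.2 to 56.2, exact Poisson interval) and 51.6 (48.8 to 54.6), and these intervals overlap. Of further cell cycle genes, 2 of 32 mitosis and 2 of 32 replication genes were lower in this class. The 10 cells with the most mitosis UMIs held 27.6% of them in WT and 32.2% in Npc1-/- cells. With barcodes of 50000 UMIs or more let in, the summed mitosis ratio of insulin-led cells moved from a log2 value of -0.36 to -0.61.

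Glucagon-led cells leaned the other way for mitosis, with 16 of 17 genes above the median gene in Npc1-/- and a summed level of 1000.4 in WT and 1290.2 in Npc1-/- cells, beside shares of mitosis-gene cells of 9.23% and 9.19%. The genes past 1.5-fold were Ccnb1 (18.6 in WT and 39.1 in Npc1-/-), which encodes cyclin B1, Ube2c (107 and 174), Cdc20 (36.3 and 56.8) and Cenpa (50.3 and 77.4). That is 4 of 17, against 1.95% of 12025 genes tested. Top2a, the topoisomerase that untangles sister chromosomes, had 109 and 118, and Ccna2, cyclin A2, had 30.1 and 31.0. None of the 12 replication genes passed the limit in either direction, where 2.02% of all genes were lower. Of 32 other mitosis genes 2 were higher. The median log2 ratio of the 12 replication genes was -0.08 and their summed level 482 and 450.

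In Ppy/Pyy-led cells 15 of the 17 mitosis genes were lower in Npc1-/- by 1.5-fold or more (2.8% of 10956 genes tested) and none was higher (2.54%). The 15 were all but Cenpf and Spc24 and their list had a summed level of 874 in WT and 487 in Npc1-/- cells. Ccnb2, cyclin B2, had 34.4 and 13.8, and Cenpe, a kinetochore motor, 22.1 and 8.39. Of the replication genes only Rrm2 (28.8 and 13.9) passed the limit. Of 27 other mitosis genes tested 17 were lower. These sums come from 23 WT and 16 Npc1-/- mitosis-gene cells, and 10 cells held 66.3% and 80.3% of the mitosis UMIs, so the 17 genes are not separate observations.

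Stellate-like cells showed opposite leanings of the 2 lists. Of 11 replication genes tested 10 were lower in Npc1-/- (3.99% of 7591 genes), with Pclaf at 131 in WT and 65.2 in Npc1-/-, Rrm2 at 33.7 and 9.23 and Mcm2 at 26.4 and 8.65, and of those tested only Pcna (48.5 and 33.5) stayed within the limit. Of 17 mitosis genes 8 were higher (3.02% of genes), among them Ccnb1 at 13.5 and 54.8, the kinetochore gene Cenpf at 51.5 and 138, and Cdc20 at 27.0 and 72.7. The ratio of the summed mitosis level to the summed replication level was 1.75 in WT and 5.14 in Npc1-/- stellate-like cells, and it lay between 1.26 and 2.87 in insulin-led, glucagon-led, Ppy/Pyy-led and endothelial-like cells. Of further genes tested, 9 of 19 replication genes were lower and 8 of 22 mitosis genes higher. Genes with few counts in this class passed the filter of 50 pooled UMIs mainly through the library where they were high. Ccnb1, Mcm2 and Rrm2 are examples, and the numbers of genes called include such cases. Only 17 WT and 15 Npc1-/- mitosis-gene cells and 10 cells with 79.0% and 88.7% of the mitosis UMIs stand behind it. When the barcodes with the highest doublet scores were removed, the log2 ratio of the mitosis list moved from 0.57 to 2.38 in this class. In endothelial-like cells 3 of 17 mitosis genes (Cenpe, Pbk and Hmmr) and 3 of 10 replication genes tested (Mcm5, Lig1 and Pclaf) were lower, against 3.17% of 9710 genes, and none of either list was higher (1.92%). In the mixed somatostatin-led class 4 of 11 mitosis genes tested were higher (3.34% of 8209 genes) and 2 were lower (3.01%). That class had 5 WT and 2 Npc1-/- mitosis-gene cells, and 10 cells held 88.9% and 93.5% of its mitosis UMIs. In mesenchymal-like cells most genes of the lists had too few counts for a ratio, and no direction is read from those that had enough, since Cdk1 passed the filter mainly through the WT library. Cdk1 had 50 UMIs in WT and 7 in Npc1-/-, Tyms 30 and 20 and Cdkn1b 20 and 49, in a class where 6.67% of 3597 genes were lower and 7.06% higher.

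**Figure D3:**
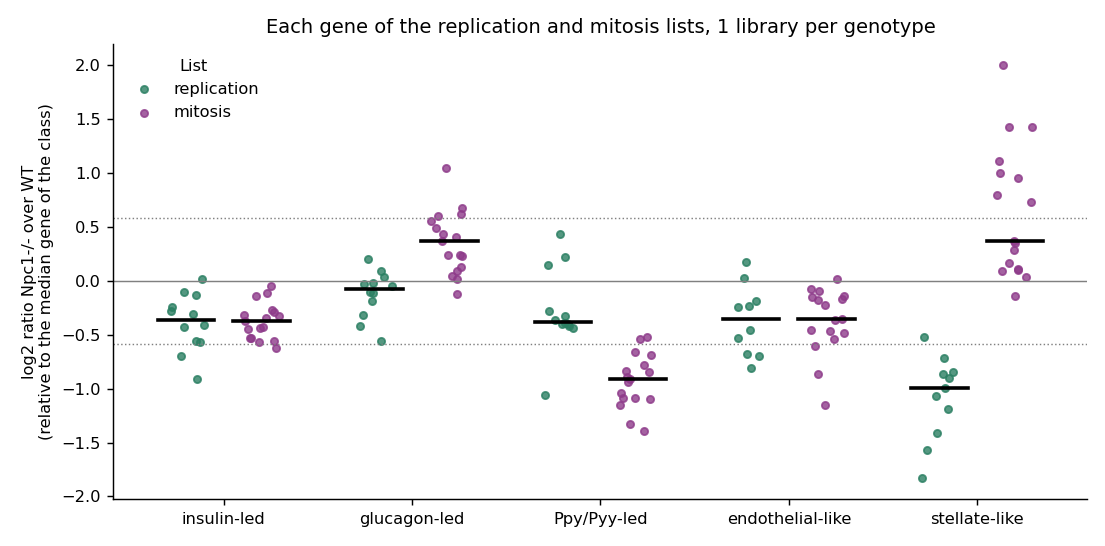
Log2 ratio Npc1-/- over WT of each tested replication gene (green) and mitosis gene (purple) in 5 classes, relative to the median gene of the class, with list medians as black bars and the 1.5-fold limits dotted. Mitosis genes lie mostly above 0 in glucagon-led and stellate-like cells and mostly below it in the other 3 classes, and the values of a list come from the same few cells.

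Compared class with class inside a library, replication genes were higher in glucagon-led than in insulin-led cells in both libraries, and mitosis genes by a margin that differed between them. In WT 7 of 12 (Hells, Lig1, Mcm3, Rrm1, Rrm2, Tyms and Ung) were higher by 2-fold or more relative to the median gene, where 9.52% of 12600 genes were, and in Npc1-/- 11 of 12, all but Pcna, where 9.3% of 12635 genes were. Thymidylate synthase Tyms had 39.4 and 28.0 in insulin-led WT and Npc1-/- cells and 81.8 and 66.8 in glucagon-led cells. The helicase gene Mcm6 had 24.8 and 20.9 in the first class and 44.1 and 51.5 in the second. Mitosis genes passed this limit in 0 of 17 cases in WT, with a median log2 ratio of 0.55, and in 15 of 17 in Npc1-/- cells, with a median of 1.29. No gene of either list was lower by this limit, where 8.14% and 7.72% of all genes were. Of other cell cycle genes in the same comparison, 8 of 32 replication and 3 of 32 mitosis genes were higher in WT, and 14 of 32 and 26 of 32 in Npc1-/- cells. The upper UMI limit left out mostly insulin-led barcodes, and these level comparisons were not repeated without it.

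In the other classes, with the same 2-fold limit, the lists parted in some comparisons and not in others. Against insulin-led cells, Ppy/Pyy-led cells had 4 of 12 replication genes higher in WT (Mcm5, Mcm6, Hells and Rrm2, with 8.57% of all genes higher and 6.71% lower) and 5 of 12 in Npc1-/- cells (Mcm3, Mcm5, Mcm6, Hells and Ung, with 7.75% and 5.3%), and 0 of 17 mitosis genes in either library. Somatostatin-led cells had 10 of 17 mitosis genes lower in WT (8.84% of all genes lower, 9.09% higher) but 2 of 17 in Npc1-/- cells (8.07% and 8.23%). Of the 12 replication genes 2 were lower in WT and 0 in Npc1-/- cells. Cdkn2c of somatostatin-led cells was lower in both libraries. Their mitosis sums rest on few cells, as 1 cell held 263 of 628 WT and 331 of 627 Npc1-/- mitosis UMIs. Endothelial-like cells differed from insulin-led cells in many genes of all kinds (21.3% higher and 24.8% lower in WT, 21.7% and 25.4% in Npc1-/-), and Pbk, Cdca3 and Spc24 were the mitosis genes lower in both libraries, Mcm3 the replication gene higher in both and Ccnd2 the G1 gene lower in both. Stellate-like cells had 7 of 17 mitosis genes higher than endothelial-like cells in WT (11.8% of all genes higher, 14.4% lower) and 17 of 17 in Npc1-/- cells (12.1% and 14.8%), with Ccnd2 and Cdkn2c higher and Cdkn1a lower in both. Of the replication genes tested, 4 of 11 were higher in WT and 1 of 10 in Npc1-/- cells. The median log2 ratios in WT were 0.86 for replication and 0.87 for mitosis, so the lists did not part there.

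**Figure D4:**
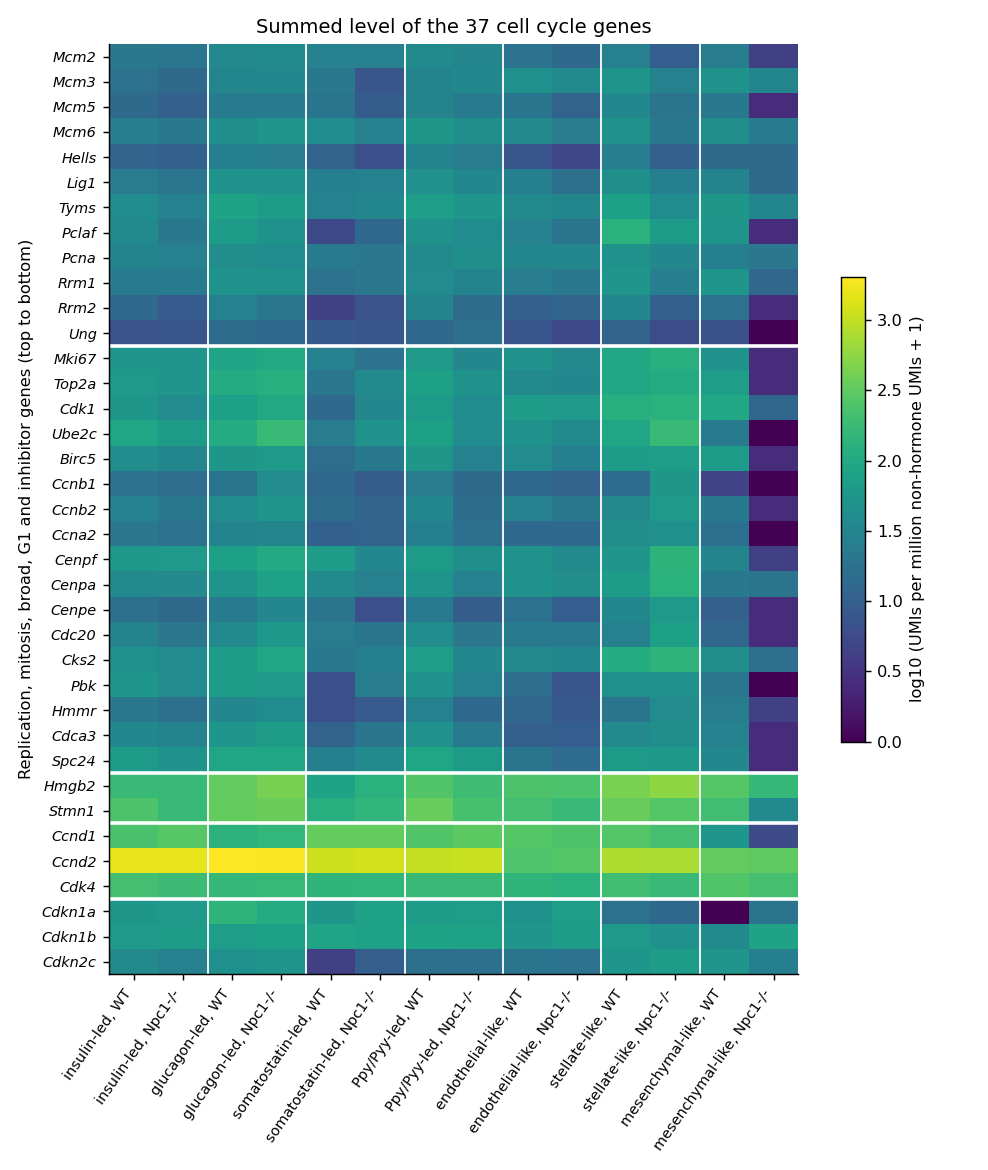
Summed level of each of the 37 genes (rows, as log10 of UMIs per 1000000 non-hormone UMIs plus 1) in 7 classes and 2 libraries (columns). Ccnd2 is bright in all hormone-led classes, from 1017 in Ppy/Pyy-led WT cells to 2037 in glucagon-led WT cells, and the mitosis genes are dark in mesenchymal-like Npc1-/- cells.

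The G1 genes were found well beyond the cycling cells, at levels that differed by class. Ccnd2 had 1600.2 and 1519 UMIs per 1000000 in insulin-led WT and Npc1-/- cells, 2037 and 1953 in glucagon-led, 1149 and 1193 in somatostatin-led, 1017 and 1074 in Ppy/Pyy-led, 797 and 768 in stellate-like, 325 and 307 in mesenchymal-like and 247 and 273 in endothelial-like cells. The order of the 7 classes was the same in both libraries, with the highest level in glucagon-led cells. Neighbours in that order had counting intervals that did not overlap, except mesenchymal-like (265 to 354) and endothelial-like cells (259 to 288) in Npc1-/-, and 1 pool per genotype gives no spread between mice. Ccnd1, another D cyclin, was lowest among hormone-led classes in glucagon-led cells (131 and 156) and highest in somatostatin-led cells (332 and 338), with 228 and 284 in insulin-led cells. It had 54.2 in WT mesenchymal-like cells and 3 UMIs in all in the Npc1-/- ones. Cdk4, the kinase these cyclins activate, ran from 129 in endothelial-like Npc1-/- to 254 in mesenchymal-like WT cells. No G1 gene passed 1.5-fold between the genotypes in the insulin-led, glucagon-led, somatostatin-led, Ppy/Pyy-led, endothelial-like or stellate-like classes. Few genes of any kind did. Of all genes tested, from 1.92% (endothelial-like) to 3.59% (insulin-led) were higher in Npc1-/-. From 2.02% (glucagon-led) to 3.99% (stellate-like) were lower, so staying within the limit does not set the G1 genes apart.

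Inhibitor genes each had their own pattern over the classes. Cdkn1a was highest in glucagon-led cells (141 in WT, 108 in Npc1-/-), with 54.9 and 59.8 in insulin-led and 16.6 and 12.1 in stellate-like cells. Cdkn1b stayed between 37.3 and 84.5 in all 14 class and library groups. Cdkn2c was lowest in somatostatin-led cells (6 and 15 UMIs, or 3.27 and 9.15 per 1000000) and reached 36.2 and 26.9 in insulin-led, 45.5 and 51.2 in glucagon-led and 54.0 and 65.7 in stellate-like cells. None of the 3 passed 1.5-fold between genotypes in insulin-led or glucagon-led cells. Of all genes tested, 3.59% were higher and 3.16% lower in insulin-led Npc1-/- cells. In glucagon-led cells 1.95% were higher and 2.02% lower, so staying within the limit does not set these inhibitors apart.

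Inside a class, the inhibitor Cdkn2c went with the mitosis genes. In insulin-led cells it stood at 427 in the 96 WT mitosis-gene cells and 6.51 in the cells with neither list, a ratio of 65.6 (54.6 to 79.4), and the Npc1-/- ratio was 66.4. In glucagon-led cells the levels were 299 and 8.31 in WT (ratio 36.01, 28.4 to 46.1) and 348 and 10.2 in Npc1-/- (ratio 34.2, 27.4 to 43.2). The ratio was 34.2 and 33.2 in endothelial-like WT and Npc1-/- cells, and 8.56 and 15.4 in stellate-like cells, where cells with neither list still had 27.1 in each library. For comparison, of 11693 genes tested in insulin-led WT cells, 11% were higher by 2-fold or more in mitosis-gene cells relative to the median gene and 7.71% were lower, and the percentages in Npc1-/- cells were 10.7% and 6.04%. Cdkn1a was 3.07 times as high in insulin-led WT mitosis-gene cells (2.65 to 3.53) and 2.66 times in Npc1-/- cells (2.27 to 3.099), with ratios of 2.15 and 2.77 in glucagon-led and 6.32 and 6.06 in Ppy/Pyy-led cells. Cdkn1b had ratios nearer to 1, of 1.20 (0.981 to 1.45) and 1.57 (1.31 to 1.88) in insulin-led and 0.990 (0.796 to 1.22) and 1.30 (1.06 to 1.57) in glucagon-led cells.

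Of the D cyclins, Ccnd1 and Ccnd2 were lower in mitosis-gene cells of the insulin-led and glucagon-led classes. Ccnd3 had ratios of 1.31 (0.986 to 1.71) in insulin-led WT and 1.13 (0.811 to 1.53) in insulin-led Npc1-/- cells. Its glucagon-led ratios were 1.29 (0.975 to 1.67) in WT and 0.986 (0.698 to 1.36) in Npc1-/- cells, so every interval held 1. Ccnd2 was 0.481 times its level in the remaining insulin-led WT cells (799 against 1660) and 0.5003 times in Npc1-/- cells (781 against 1560), and 0.758 and 0.690 times in glucagon-led cells. Ccnd1 was 0.521 and 0.471 times in insulin-led and 0.679 and 0.436 times in glucagon-led cells, whereas in endothelial-like cells its ratios of 1.17 (0.917 to 1.47) and 1.27 (0.996 to 1.60) held 1 within counting error. Cdk4 was higher, by 1.85 and 1.73 times in insulin-led and 1.95 and 1.78 times in glucagon-led cells. Of the 79 replication-gene cells of the insulin-led WT class 53 were also mitosis-gene cells, and Ccnd2 was 0.674 times its level in cells with neither list. In the 26 with replication genes only, Ccnd2 stood at 1646 (1526 to 1773) against 1660 in cells with neither, and Ccnd1 at 246 (201 to 299) against 235. In glucagon-led cells with replication genes only, Ccnd2 stood at 2388 in WT and 2283 in Npc1-/-, against 2084 and 2011 in cells with neither list. Stmn1, which destabilises microtubules, and Hmgb2, a chromatin protein, were 174 and 33.0 times as high in insulin-led WT mitosis-gene cells, and only 16.7 and 16.2 times in endothelial-like WT cells, whose remaining cells had 99.3 and 119 against 18.2 and 51.3 in insulin-led cells.

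**Figure D5:**
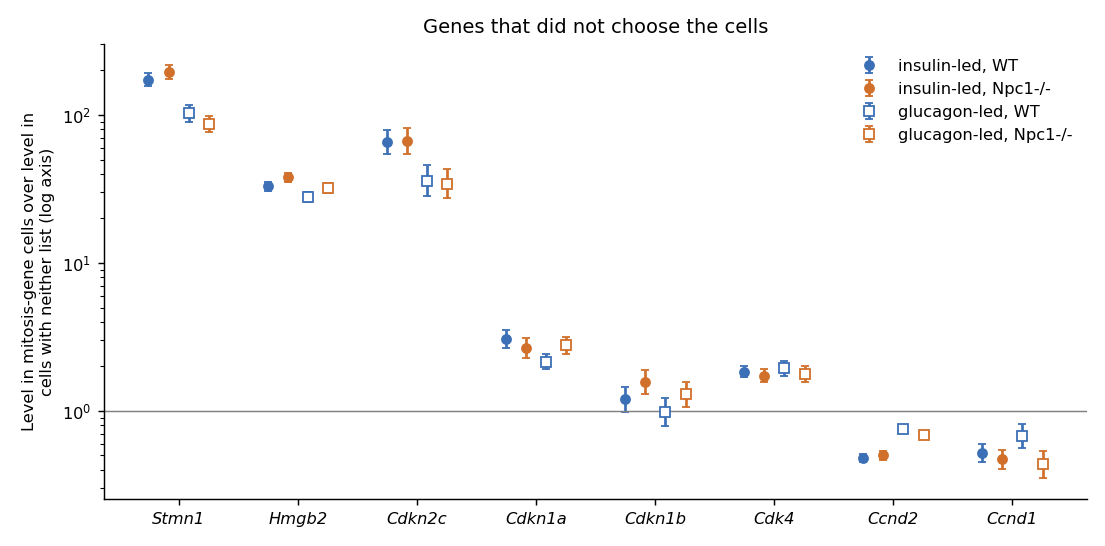
Level of 8 genes that did not choose the cells, in mitosis-gene cells divided by the level in cells of the same class with neither list (log axis), for insulin-led (filled circles) and glucagon-led (open squares) cells of each library, with 95% intervals for counting error. Stmn1, Hmgb2 and Cdkn2c lie at 27.9 or above in all 4 groups, Cdkn1a and Cdk4 between 1.73 and 3.07, and Ccnd1 and Ccnd2 below 1.

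Other replication and mitosis genes, from lists that did not choose the cells, were higher in them too, whereas other regulators went both ways. All 32 other mitosis genes, such as the spindle gene Prc1, were higher by 2-fold or more in the mitosis-gene cells of insulin-led and of glucagon-led cells in both libraries, and so were 31 of 32 other replication genes. The percentages of all genes higher in glucagon-led mitosis-gene cells were 9.93% in WT and 9.08% in Npc1-/-, and 5.21% and 5.89% were lower. Prc1 stood at 324 and 5.70 in insulin-led WT cells. Of 16 other regulators 9 were higher by 2-fold or more in insulin-led mitosis-gene cells of each library, and 5 in WT and 3 in Npc1-/- were lower. In glucagon-led mitosis-gene cells 8 were higher by 2-fold or more in each library, and 4 in WT and 6 in Npc1-/- were lower. Cdkn2d (p19), a second inhibitor of Cdk4, was 11.3 and 13.6 times as high in insulin-led and 11.3 and 12.5 times in glucagon-led cells. Trp53 was 1.73 (1.43 to 2.08) and 1.78 (1.45 to 2.16) times as high in insulin-led cells. Mdm2, which targets p53 for degradation, had a ratio of 0.702 (0.542 to 0.896) in insulin-led WT cells. Its interval held 1 in insulin-led Npc1-/- cells (0.881, 0.688 to 1.11). The same held in glucagon-led WT (0.882, 0.674 to 1.14) and Npc1-/- cells (0.906, 0.691 to 1.17).

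The leading hormone took a smaller share of mitosis-gene cells in the insulin-led and glucagon-led classes. Insulin made up 44.8% of UMIs in WT mitosis-gene cells and 52.3% in the insulin-led cells with neither list, and 39.5% and 49.8% in Npc1-/- cells. Gcg made up 26.2% and 31.3% in WT and 28.2% and 30.4% in Npc1-/- glucagon-led cells. In Ppy/Pyy-led cells Ppy with Pyy made up 34.0% and 35.7% in WT, but 33.7% and 31.6% in Npc1-/- cells. Median UMIs per mitosis-gene cell were higher, at 18217.5 against 12329 outside the hormone genes in insulin-led WT cells. Median doublet scores of mitosis-gene cells were 0.0443 against 0.0650 in insulin-led WT cells, 0.0589 against 0.0368 in glucagon-led, 0.158 against 0.0263 in endothelial-like and 0.168 against 0.0161 in stellate-like WT cells. In Npc1-/- cells the scores of the same 4 classes were 0.0700 against 0.0629, 0.0556 against 0.0322, 0.164 against 0.0334 and 0.148 against 0.0218. The insulin-led direction thus differed between the libraries. The part of doublets in these values was not tested.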

How the data were processed

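The authors deposited, for each library, a matrix of UMI counts, which Cell Ranger 3.1.0 produced on build mm10 per the submitters' processing notes, which also name Seurat 4.0.3. The labels and the study's methods differ on the version of the 3′ kit. The 8569 WT and 7646 Npc1-/- barcodes held 114324626 and 127122035 UMIs. A barcode was kept when it had over 1000 genes and under 50000 UMIs, and when mitochondrial genes took under 10% and haemoglobin genes no more than 0.1% of them. A cell took the class of its leading hormone at 10% or more of its UMIs, and otherwise the class with the most distinct markers detected, at least 3, without a tie. Doublets were not removed in the values reported. Scrublet's own threshold marked 65 and 40 barcodes, and removal at the expected rate (317 and 261 barcodes) was an alternative.

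Levels are summed UMIs per 1000000 UMIs outside Ins1, Ins2, Gcg, Sst, Ppy, Pyy and Iapp. Cells were thinned at random to 2500 such UMIs before genes per cell were counted, and shallower cells were left out. Ratios had 0.5 counts added and were set against the median of all genes with at least 50 pooled UMIs. A gene with few counts could pass this filter mainly through the library where it was high. With 1 library per genotype no test was run. Intervals are exact (Poisson, Clopper-Pearson), conditional binomial or, for ratios of shares, on the log scale. Those of levels and of level ratios take each UMI as a separate count and leave out the spread between cells. All 37 genes could be named, and at most 4 of each further list, those with the most UMIs. The members and lists were chosen with earlier results of these data known. Promoter windows came from RefSeq. Scripts were tested on simulated data and used scanpy 1.11.5, scipy 1.17.1 and numpy 2.4.6 under Python 3.11.15, with edgeR 4.0.16 for the TMM alternative. Alternatives covered cell filters, the upper UMI limit, doublets, the class rule, thinning, genes needed per cell, scaling, centring and the count filter.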

Additional observations from a re-analysis of the deposited data

Results flagged for a closer look

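The mitosis list had opposite signs between classes in its log2 ratio Npc1-/- over WT, at 0.34 in glucagon-led and 0.57 in stellate-like cells and at -0.36 in insulin-led, -0.86 in Ppy/Pyy-led, -0.32 in endothelial-like and -3.13 in mesenchymal-like cells. Stmn1 and Hmgb2 together stood at 0.22 in glucagon-led and 0.44 in somatostatin-led cells and at -0.29 in insulin-led, -0.55 in Ppy/Pyy-led, -0.13 in endothelial-like and -1.26 in mesenchymal-like cells. The G1 genes stood at 0.077 in Ppy/Pyy-led cells and at -0.10 in insulin-led, -0.058 in glucagon-led, -0.12 in stellate-like and -0.26 in mesenchymal-like cells. The inhibitors stood at 0.36 in endothelial-like and -0.15 in glucagon-led cells. Each was picked out because its counting interval lay on the opposite side of 0 from that of another class. These intervals take each UMI as a separate count, while UMIs of a list come together in few cells, so they are too narrow. For insulin-led mitosis the interval was -0.394 to -0.329, whereas that of the share ratio, which counts cells, held 1 (0.612 to 1.10). None of these differences between classes was tested, since each genotype had 1 library, and the sums outside insulin-led and glucagon-led cells rest on few cells. In mesenchymal-like cells only 1 of the 17 mitosis genes reached the count filter, and 1 WT cell held 130 of the 297 WT mitosis UMIs. No direction is read from the values of that class.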

How the results depend on the processing

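No paired analysis was possible because each genotype had 1 library, and for the same reason no replicate could be left out. Among the main shares and list ratios recomputed under the alternatives, 256 values lay within the counting interval of the value reported, 35 lay outside it and 1 with an interval that did not hold 1 changed sides. Ratios whose interval held 1 also crossed it, among them the stellate-like mitosis share ratio (1.33 with high doublet scores removed, 1.19 with the stricter filter) and the Ppy/Pyy-led replication share ratio (1.15 with the stricter filter). Without thinning, the endothelial-like replication share ratio Npc1-/- over WT was 1.21, on the other side of 1, the glucagon-led over insulin-led replication share ratio was 1.54 in WT and 1.75 in Npc1-/-, and the insulin-led ratio for both lists was 0.925. With the stricter filter (over 2000 genes, under 5% mitochondrial UMIs) the list log2 ratios Npc1-/- over WT were, for mitosis, -0.46 in insulin-led, 0.41 in glucagon-led, -0.70 in Ppy/Pyy-led and 1.13 in stellate-like cells, and for replication -0.34 in insulin-led and -0.17 in Ppy/Pyy-led cells. With high doublet scores removed, mitosis stood at -0.45 in insulin-led, 0.57 in glucagon-led, -0.85 in endothelial-like and 2.38 in stellate-like cells, and replication at -0.83 in stellate-like cells. With a leading hormone of 20%, mitosis stood at -0.46, 0.63, -0.68, -0.62 and 0.47 in insulin-led, glucagon-led, Ppy/Pyy-led, endothelial-like and stellate-like cells, and replication at -0.19 in Ppy/Pyy-led cells. In insulin-led cells mitosis was -0.61 without the upper UMI limit, -0.23 per all UMIs and -0.30 when not relative to the median gene, and replication was -0.28 per all UMIs, -0.35 not relative to it and -0.31 as a mean over cells. In stellate-like cells replication was -0.83 with under 20% mitochondrial UMIs and -0.57 as a mean over cells. The glucagon-led over insulin-led mitosis level ratio was 2.16 per all UMIs, 1.55 with the stricter filter and 1.15 without high doublet scores in WT, and 3.28 and 2.79 under the first 2 in Npc1-/- cells. The replication level ratio per all UMIs was 2.89 in WT and 3.29 in Npc1-/- cells. Neither level ratio between these classes was recomputed without the upper UMI limit. Apart from the scale itself in the values per all UMIs, the cause of these moves was not tested. The second thinning draw and the alternatives for cells with both lists were chosen after seeing the data. Over the alternatives the mitosis share ratio Npc1-/- over WT ran from 0.750 to 0.832 in insulin-led and from 0.576 to 1.33 in stellate-like cells.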

Other observations

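Cell cycle genes were also seen in cells outside the 7 classes, after the same thinning. Macrophage-like cells had mitosis-gene shares of 15% (9 of 60) in WT and 12.1% (4 of 33) in Npc1-/-, and replication-gene shares of 20% (12 of 60) and 3.03% (1 of 33). Duct-like cells had mitosis-gene shares of 10.4% (5 of 48) and 2.63% (3 of 114). Of WT lymphocytes, 5 of 134 B cell-like and 4 of 73 T cell-like cells were mitosis-gene cells. Barcodes of 50000 UMIs or more, which were left out above, numbered 165 in WT and 367 in Npc1-/-. Mitosis-gene barcodes were 20% of them in WT (14.2 to 26.9%) and 9.54% in Npc1-/- (6.73 to 13.0%). Most of the barcodes left out by this limit were insulin-led, at 153 of 165 in WT and 343 of 367 in Npc1-/-.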
